A study of Mus musculus with 14 samples.

Results

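The genes described here are 39 monocyte and macrophage genes, out of 24463 genes in the deposited tables, followed through 14 RNA-seq libraries of mouse leukemic stem cells (LSCs). They were chosen by symbol. The rule used no measured values, but the choice was made with earlier results of these data known. Grouped by what their products do, they were 2 lysozymes, 6 lysosomal proteases, 6 Fc gamma receptors and signalling adaptors, and 3 complement C1q chains. The rest were 4 C-type lectins and lectin-like receptors, 6 scavenger and lipid-handling proteins, and 12 identity and surface genes. The LSCs model chronic myeloid leukemia. Lineage-negative bone marrow was infected with a retrovirus carrying p210 BCR-ABL at the start of a 48 h culture and again at 24 h, in medium with 15% serum, stem cell factor at 50 ng/ml and thrombopoietin at 20 ng/ml, and cells that lacked lineage markers and carried c-Kit, Sca1 and GFP were sorted. All 5 groups therefore carried BCR-ABL. Untreated LSCs were grown from marrow that was either wild type (WT, n = 3) or Tcf1/Lef1-deficient (dKO, n = 3), the latter lacking a pair of transcription factors that partner beta-catenin. LSCs from control marrow were kept for 6 h with the vehicle DMSO (n = 3), 20 µM prostaglandin E1 (PGE1, n = 3) or 20 µM prostaglandin E2 (PGE2, n = 2). The labels do not give the way the deletion was made, the age of the animals or any pooling. They also do not say that replicates were separate mice or cultures, so that the spread behind each p-value, taken between libraries, may be technical.

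Monocytes and macrophages are phagocytes. They take up particles through scavenger receptors, lectins, Fc receptors that bind antibody-coated targets, and complement, of which C1q is the recognition part, and they break the cargo down in lysosomes with proteases such as the cathepsins. The receptor of colony-stimulating factor 1, encoded by Csf1r, sustains the lineage, and the transcription factor PU.1, encoded by Spi1, binds many of its promoters. In a stem and progenitor gate such genes can mark cells, or programs within cells, that lie on the path to the myeloid lineage. Bulk libraries do not show which of the sorted cells hold their RNA.

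Promoter sequence was at hand for 31 of the 39 genes, from RefSeq on the build GRCm38.p6, as the 250 bases upstream of the first listed start of each gene. Motifs were searched on both strands, and 4 were looked for: the PU.1 (ETS) core GAGGAA, the AP-1 site TGANTCA, the E-box of MITF and TFEB CACGTG, and the cAMP response element TGACGTCA. No motif of the 4 contains another. The 7 windows printed here belong to genes on which the results below turn: the C1q chains C1qb and C1qc, Ctss and Trem2 fell in dKO and after PGE1, Clec4d and Ctsl fell in dKO and rose after PGE1, and Fcgr2b rose in dKO and fell after PGE1. Each runs 5′ to 3′ toward the gene, and capitals mark a motif match on either strand. C1qb lies at chr4:136886201-136886450 (minus strand), C1qc at chr4:136892915-136893164 (minus), Ctss at chr3:95526536-95526785 (plus), Trem2 at chr17:48346151-48346400 (plus), Clec4d at chr6:123261857-123262106 (plus), Ctsl at chr13:64370521-64370770 (minus) and Fcgr2b at chr1:170976072-170976321 (minus).
C1qb: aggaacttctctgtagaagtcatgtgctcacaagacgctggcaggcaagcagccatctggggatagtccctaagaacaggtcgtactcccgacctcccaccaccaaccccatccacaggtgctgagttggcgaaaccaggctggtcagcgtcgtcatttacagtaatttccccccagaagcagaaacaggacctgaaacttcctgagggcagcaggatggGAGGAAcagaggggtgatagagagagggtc
C1qc: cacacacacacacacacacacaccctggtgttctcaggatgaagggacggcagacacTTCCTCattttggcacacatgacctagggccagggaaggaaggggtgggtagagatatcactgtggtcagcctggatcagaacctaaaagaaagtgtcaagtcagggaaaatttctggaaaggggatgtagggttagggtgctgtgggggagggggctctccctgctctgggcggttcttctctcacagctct
Ctss: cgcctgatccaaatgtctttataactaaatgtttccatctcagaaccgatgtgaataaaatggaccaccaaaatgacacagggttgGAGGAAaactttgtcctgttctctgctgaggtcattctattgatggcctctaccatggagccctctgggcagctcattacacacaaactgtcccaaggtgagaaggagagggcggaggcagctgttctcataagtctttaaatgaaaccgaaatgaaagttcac
Trem2: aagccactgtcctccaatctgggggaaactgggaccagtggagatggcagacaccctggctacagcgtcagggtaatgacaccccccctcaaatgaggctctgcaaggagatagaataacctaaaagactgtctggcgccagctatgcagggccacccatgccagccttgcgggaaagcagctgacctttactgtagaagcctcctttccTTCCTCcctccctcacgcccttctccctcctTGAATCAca
Clec4d: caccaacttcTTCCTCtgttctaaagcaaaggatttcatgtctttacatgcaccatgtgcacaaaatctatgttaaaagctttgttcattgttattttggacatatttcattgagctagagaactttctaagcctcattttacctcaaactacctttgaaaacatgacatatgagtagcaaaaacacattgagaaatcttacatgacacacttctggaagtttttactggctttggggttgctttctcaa
Ctsl: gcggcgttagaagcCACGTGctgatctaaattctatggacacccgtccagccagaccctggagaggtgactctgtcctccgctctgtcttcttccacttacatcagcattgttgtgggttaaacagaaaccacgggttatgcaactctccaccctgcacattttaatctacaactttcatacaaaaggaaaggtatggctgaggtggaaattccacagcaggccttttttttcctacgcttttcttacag
Fcgr2b: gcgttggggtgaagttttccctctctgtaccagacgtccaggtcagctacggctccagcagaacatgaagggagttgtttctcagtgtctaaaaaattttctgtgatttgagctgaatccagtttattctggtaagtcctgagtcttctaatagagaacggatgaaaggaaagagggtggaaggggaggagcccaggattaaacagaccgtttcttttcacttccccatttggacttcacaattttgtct
The PU.1 core was in 15 of the 31 windows (48.4%), against 6252 of 27025 windows over all genes (23.1%). In C1qb it lay 30 bases before the start, in Trem2 40, in Ctss 164, in C1qc 193 and in Clec4d 240. The AP-1 site was in 2 of 31 windows (Cd68 and Trem2, 6.45%) against 6.87% of all, and the E-box in 2 (Ctsd and Ctsl, 6.45%) against 6.05%. The cAMP response element was in 0 of 31, against 1.62% of all windows. A match says only that these letters are in the window. The Fcgr2b window held none of the 4.

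Library depth was 31.3 to 33.8 M reads in untreated and 19.0 to 22.7 M in treated cells, and levels are in FPKM, fragments scaled to gene length and depth, so that levels of different genes can be set side by side. Tcf7, which encodes Tcf1, read 1.48, 1.15 and 1.3 FPKM in WT and 0.142, 0.0219 and 0.135 in dKO. Lef1 was low throughout, at 0.223 to 0.319 FPKM in WT and 0.105 to 0.184 in dKO. In 2 libraries the genotype field disagrees with the sample title, which set the groups here: replicate 1 of dKO, whose Tcf7 level lies with the dKO libraries, and replicate 1 of DMSO, whose level of 1.03 FPKM lies with the controls. Genes of the Y chromosome such as Ddx3y were at 0 in all dKO libraries and at 7.72 to 8.94 FPKM in WT, so the sex of the donors and the genotype cannot be told apart. Xist, a gene of the inactive X chromosome, was at 10.1 ± 0.385 FPKM in WT and 21.9 ± 8.29 in dKO. The WT group thus held RNA of Xist and of Y-linked genes, and the labels do not say whether donors of both sexes were pooled. Variance between replicates was 13.99 to 14.71 times counting noise in pairs with dKO replicate 1, against 5.17 for the other dKO pair. It was 14.88 to 17.06 in pairs with DMSO replicate 1, against 1.83, and 41.02 to 42.52 in pairs with PGE1 replicate 2, against 11.28. Between WT libraries it was 2.09 to 2.92, and between the PGE2 libraries 1.99.

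The sorted cells expressed the gate's own genes: Kit, which encodes c-Kit, read 27.4 to 28.6 FPKM in WT, and Ly6a, which encodes Sca1, 10.4 to 12.6. The 39 genes were plainly present beside them. Their levels summed to 3050 to 3170 FPKM in the WT libraries, and 38 of the 39 passed the minimum mean of 1 FPKM in every comparison. The one below it was Lyz1, a lysozyme nearly identical to Lyz2, at 0.167 to 0.444 FPKM in WT. The most abundant in WT were Lyz2 (lysozyme M, which cuts bacterial cell walls) at 454 ± 13.6 FPKM (SD, n = 3), the aspartic protease gene Ctsd at 336 ± 11.2, Ly6c2 (a surface marker of inflammatory monocytes) at 336 ± 17.6 and Ctsz at 246 ± 2.28. Among the lowest were Ms4a7 at 2.62 ± 0.326 and Aif1, which encodes the microglia and macrophage marker Iba1, at 3.49 ± 0.466. Defining markers of macrophages were detected in each WT library: Csf1r at 34.5 to 35.4, Adgre1 (F4/80) at 14.5 to 16.2 and Cd68 at 61.8 to 63 FPKM. Neutrophil markers were far higher, with a sum of 8210 to 8560 FPKM over 14 genes, and 12 monocyte and macrophage markers summed to 956 to 1000. All of those 12 but Mertk and Cd14 are genes of the set. Lyz2 and Ly6c2 each have a near-identical neighbour (Lyz1, Ly6c1), and Fcgr2b and Fcgr3 share much of their extracellular sequence, so reads could be split between them.

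Loss of Tcf1 and Lef1 was accompanied by lower levels of nearly the whole set. Of the 38 genes tested, 34 fell (89.5%), against 22.9% of all 10721 genes tested, and 1 rose, Fcgr2b, against 18.0%. By at least 1 on the log2 scale, 28 fell, against 3.46% of all genes. The median log2 difference was -1.93 for the set and -0.01 over all genes. Over all genes the share of calls that were higher was 44.1%, and it moved to 60.2% with quantile normalization and 56.2% with median-of-ratios scaling, while the set stayed at 34 lower and 1 higher under both. Fewer cells of a type and less RNA per cell cannot be told apart in these bulk libraries.

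**Figure D1:**
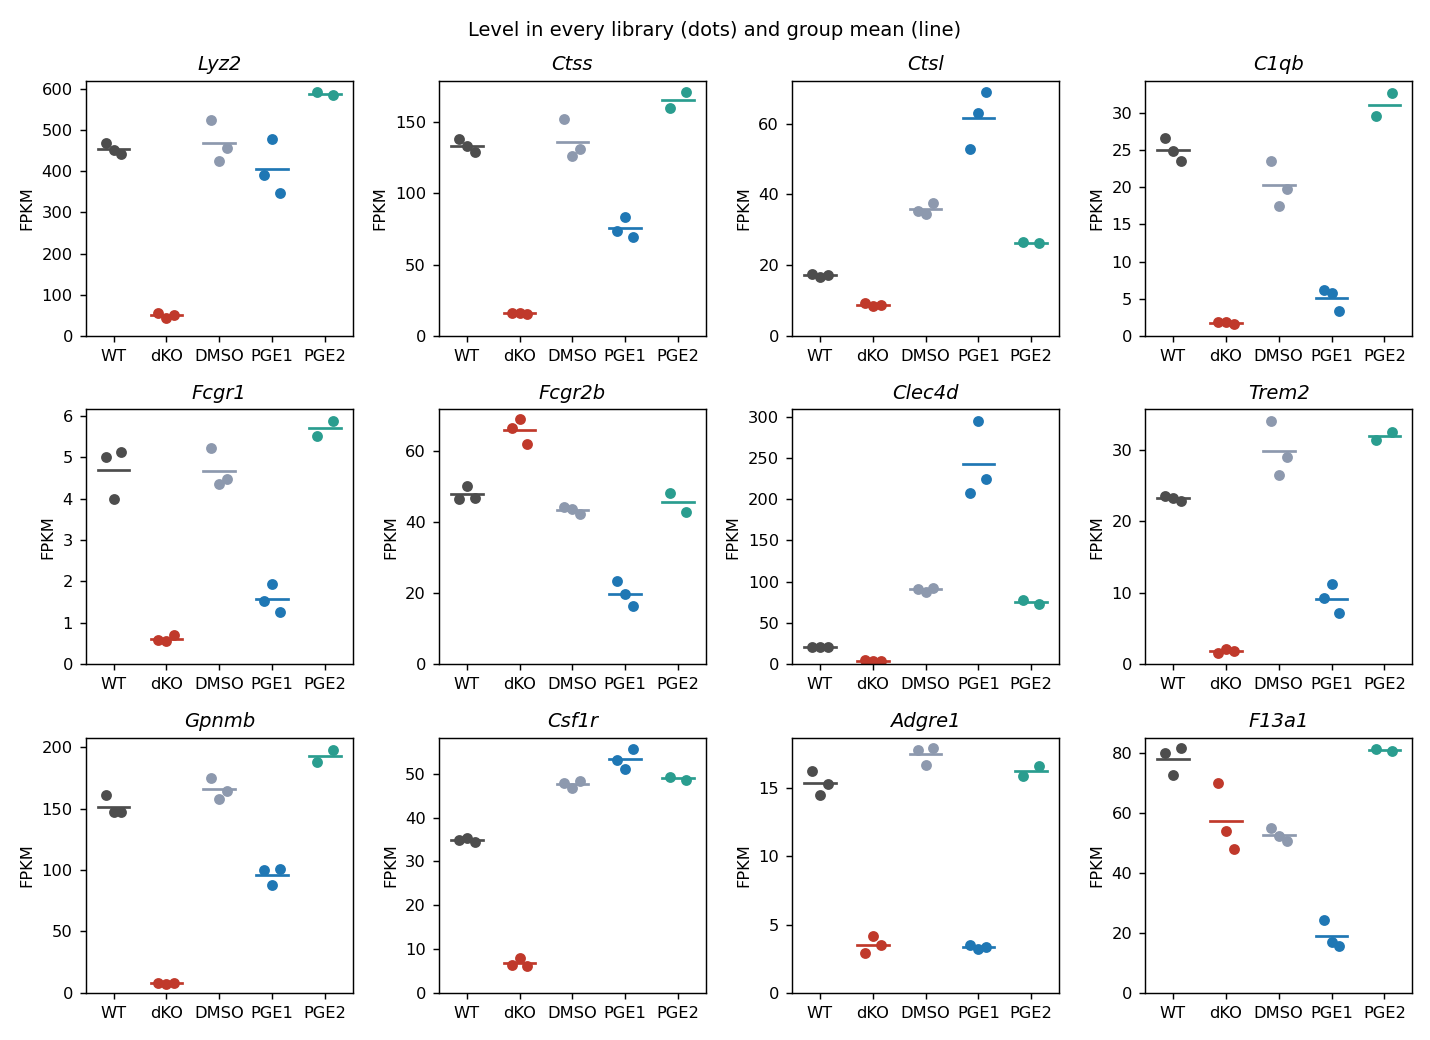
Level of 12 of the genes in every library, in FPKM from 0 (dots), with the group mean as a line, for WT, dKO, DMSO, PGE1 and PGE2. In Lyz2, Ctss, C1qb, Trem2 and Gpnmb all dKO dots sit near the bottom, in Clec4d and Ctsl the PGE1 dots are the highest, and in Fcgr2b the dKO dots are above WT.

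Among scavenger and lipid-handling genes all 6 fell in dKO, with a median of -2.76. Gpnmb, a transmembrane glycoprotein of lipid-laden macrophages, read 161, 147 and 147 FPKM in WT and 8.41, 7.01 and 7.88 in dKO. That is a 19.5-fold lower mean, with a log2 difference of -4.12 (SE 0.07, adjusted p = 6.67e-08), the largest in the set. Apoe, the apolipoprotein that carries cholesterol out of macrophages, read 201, 194 and 184 FPKM in WT and 19.2, 11.5 and 11.8 in dKO, with dKO replicate 1 the highest of the 3 (13.6-fold, adjusted p = 3.97e-06). Trem2, a receptor for lipids and cell debris, went from 23.6, 23.2 and 22.9 FPKM to 1.62, 2.09 and 1.87 (12.5-fold). The scavenger receptor gene Msr1 read 6.46, 5.7 and 6.07 FPKM in WT and 0.698, 0.202 and 0.103 in dKO, where it rested on 47 reads in all. Cd36, a receptor for oxidized lipids, went from 5.87 to 6.69 FPKM down to 0.401 to 0.627. The endosomal glycoprotein gene Cd68 read 63, 61.9 and 61.8 FPKM against 14.8, 12.6 and 12 (4.74-fold). In none of the 6 did the WT and dKO libraries overlap.

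The C1q chains, which assemble into the molecule that starts the classical complement pathway, fell together, all 3 of 3. C1qb, whose promoter is printed above, read 26.6, 24.9 and 23.5 FPKM in WT and 1.93, 1.87 and 1.57 in dKO, a mean of 7.15% of WT (log2 difference -3.22, SE 0.07, adjusted p = 1.47e-07). C1qc read 18.6, 17.8 and 18.1 against 1.18, 0.982 and 1.52 (6.75%). C1qa was lower in level than its partners, at 4.96 to 5.81 FPKM in WT and 0.301 to 0.414 in dKO (6.21%). The remaining level was thus alike for the 3 chains, with the dKO libraries far below every WT library.

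Of the lysosomal proteases 5 of 6 fell, and they did so to very different degrees. Legumain (Lgmn), which processes cathepsins, read 30.2, 29.1 and 26 FPKM in WT and 2.55, 1.74 and 2.82 in dKO (12-fold, adjusted p = 1.77e-06). Ctss, the cathepsin that trims the invariant chain of MHC class II, read 138, 133 and 129 against 16, 16.2 and 15.1 (8.47-fold, adjusted p = 5.03e-08). The more broadly expressed Ctsb fell 3.57-fold, from 155 to 43.4 FPKM. Ctsd and Ctsl fell 1.98-fold and 1.93-fold. Ctsz, a carboxypeptidase, was at 246 ± 2.28 FPKM in WT and 241 ± 28.5 in dKO (n = 3 each) with overlapping libraries, and the 95% interval of its log2 difference was -0.22 to 0.15. The lysozyme gene Lyz2 went from 469, 451 and 442 FPKM to 56, 42.6 and 51 (9.1-fold, adjusted p = 4.87e-07).

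The Fc receptor group held the sole gene of the set that rose. Fcgr2b encodes the inhibitory receptor for IgG, and it read 46.3, 50 and 46.8 FPKM in WT and 66.2, 68.9 and 61.9 in dKO (1.38-fold, log2 difference 0.45, SE 0.05, adjusted p = 4.12e-04). All dKO libraries were above all WT libraries. The activating receptors fell: Fcgr1, the high-affinity receptor CD64, from 3.98 to 5.11 FPKM down to 0.571 to 0.701 (7.6-fold), Fcgr4 by 2.25-fold and Fcgr3 by 1.48-fold. Their signalling partners fell too. Fcer1g, the shared gamma chain, went from 104 to 43.7 FPKM (2.38-fold), and Tyrobp, which encodes the adaptor DAP12 of Trem2, from 209 to 98.6 (2.12-fold).

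Of the lectins, 3 of 4 fell. Clec4n (Dectin-2, a receptor for fungal mannans) read 5.15, 6.05 and 5.09 FPKM in WT and 0.443, 0.256 and 0.236 in dKO (17.4-fold, adjusted p = 2.55e-06, on 35 dKO reads). Its partner Clec4d went from 20.6 to 21.6 FPKM down to 3.72 to 4.88 (5.05-fold), and Clec7a (Dectin-1, the beta-glucan receptor) from 8.58 to 1.87 (4.6-fold). The mannose receptor gene Mrc1 was at 4.09 ± 0.0579 FPKM in WT and 3.6 ± 0.873 in dKO (n = 3 each). Those libraries overlapped and the interval of the log2 difference was -0.46 to 0.13.

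Among the identity and surface genes 11 of 12 fell. Mpeg1, which encodes the pore-forming perforin-2, read 50.1, 47.4 and 49.4 FPKM in WT and 6.39, 7.51 and 7.52 in dKO (6.85-fold, adjusted p = 1.92e-07). Csf1r read 35, 35.4 and 34.5 against 6.45, 7.86 and 6.09 (5.14-fold), and Adgre1 16.2, 14.5 and 15.3 against 2.91, 4.19 and 3.47 (4.36-fold). The membrane-spanning Ms4a genes Ms4a7, Ms4a4a and Ms4a6c fell 13.4-fold, 8.08-fold and 3.67-fold, Aif1 fell 12.8-fold on 23 dKO reads, and Pld4, a lysosomal nuclease, fell 4.73-fold. Lgals3 (galectin-3) went from 159 to 167 FPKM down to 53.5, 26.9 and 32, with dKO replicate 1 again the highest of the 3. Sirpa, the receptor for the CD47 signal, fell 1.9-fold. The smallest change was in F13a1, the monocyte gene for clotting factor XIII A, which read 80.2, 72.7 and 81.8 FPKM in WT and 70.1, 53.9 and 48.1 in dKO (log2 difference -0.46, SE 0.12, adjusted p = 0.0213). This call was lost without WT replicate 1, WT replicate 3, dKO replicate 2 or dKO replicate 3, with an adjusted p of up to 0.0711. Ly6c2, the other gene best known from classical monocytes, was at 336 ± 17.6 FPKM in WT and 346 ± 38.3 in dKO (n = 3 each), with an interval of -0.15 to 0.23.

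Without dKO replicate 1, the library whose genotype field disagrees, the set again had 34 genes lower and 1 higher. The 12 monocyte and macrophage markers summed to 389 to 474 FPKM in dKO against 956 to 1000 in WT. All of them but Mertk and Cd14 are genes of the set, so this sum mostly repeats the result above. Markers of other cell types moved in the same comparison. Of 7 megakaryocyte markers all 7 fell, with a sum of 47.6 to 95.4 against 193 to 213, and of 5 tested dendritic cell and MHC class II markers 4 fell, at 61 to 89.7 against 142 to 156. The neutrophil sum was higher, at 11100 to 11300, with 5 of 13 tested markers higher and 6 lower and none at 0. Of 8 mast cell and basophil markers tested 6 fell, at 102 to 110 against 168 to 172. All 6 stem and progenitor markers tested fell (sum 90.7 to 94.6 against 142 to 148), among them Ly6a, at 2.86 to 3.53 FPKM in dKO, and Kit at 20.8 to 25.8. Gata2 is counted in both this list and the mast cell and basophil list. The part of all these markers in the result was not tested.

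**Figure D2:**
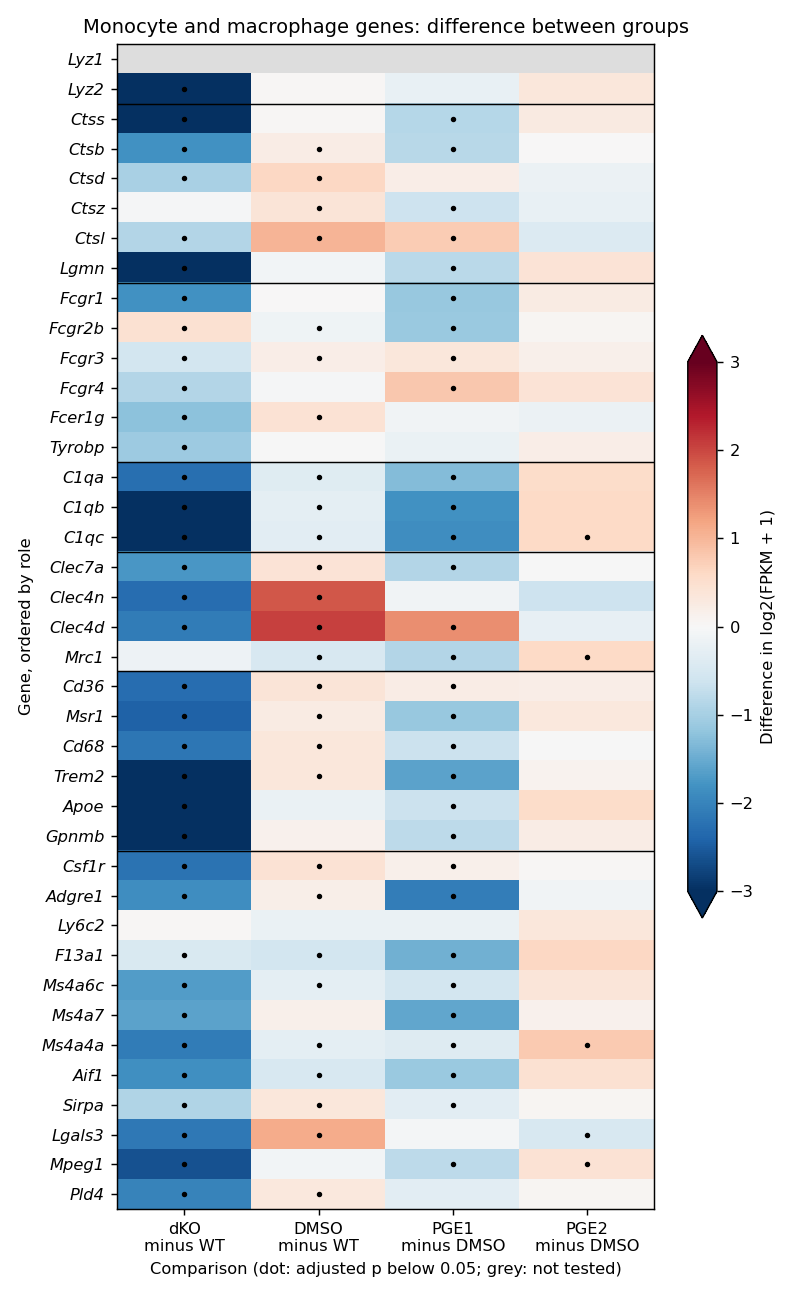
Differences in log2(FPKM + 1) for the 39 genes (rows, ordered by role, lines between roles) in 4 comparisons (columns); red is higher, blue lower, the scale ends at 3 in either direction, a dot marks an adjusted p below 0.05 and grey was not tested. The dKO column is blue in 34 rows with a dot, the PGE1 column in 24, and the PGE2 column has 5 dots.

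A further 6 h with DMSO left the set mixed. Against WT, 18 of 38 genes were higher in DMSO, against 26.0% of 11115 genes tested, and 9 were lower, against 30.7%. The median was 0.14, and -0.03 over all genes. The 6 h in culture cannot be told apart from handling or sequencing differences between the sets. The largest rises were in lectins: Clec4d stood at 91.7, 88 and 92.8 FPKM in DMSO against 20.6, 21.3 and 21.6 in WT (4.3-fold, log2 difference 2.05, SE 0.04, adjusted p = 3.91e-08), and Clec4n at 22.3, 21 and 23.9 against 5.15, 6.05 and 5.09 (4.12-fold). Lgals3, a galactose-binding protein of macrophages, read 385, 338 and 338 FPKM against 167, 163 and 159 (2.18-fold). Among proteases Ctsl went from 17.5, 16.6 and 17.2 to 35.3, 34.4 and 37.5 (2.09-fold), Ctsd from 348, 334 and 326 to 543, 489 and 507 (1.53-fold) and Ctsz from 248, 246 and 244 to 348, 312 and 304 (1.31-fold). For each of these 6 genes every DMSO library was above every WT library.

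Smaller rises were in Fcer1g (1.36-fold), Csf1r (from 34.5 to 35.4 FPKM up to 46.7 to 48.4, 1.36-fold), Clec7a (1.37-fold), Cd36 (1.35-fold), Trem2 (1.28-fold), Sirpa, Pld4, Cd68, Msr1, Ctsb, Fcgr3 and Adgre1. Those that fell included F13a1, from 72.7 to 81.8 FPKM down to 50.6 to 55.2 (log2 difference -0.56, adjusted p = 1.05e-04), Mrc1 (1.53-fold lower), Aif1 (1.55-fold lower), C1qa (1.35-fold lower, at 3.46 to 4.8 FPKM) and, below 1.3-fold, C1qb, C1qc, Ms4a6c, Ms4a4a and Fcgr2b. Without WT replicate 2 or WT replicate 3 the rises of Adgre1, Msr1 and Ctsb no longer passed (adjusted p up to 0.115, 0.138 and 0.0685), nor did that of Adgre1 without DMSO replicate 3. The count of lower genes was unstable: 4 without WT replicate 1 or WT replicate 2, 6 without DMSO replicate 2 or DMSO replicate 3, and 14 without DMSO replicate 1, where Apoe, Lgmn, Ly6c2, Mpeg1 and Tyrobp were added. Lyz2 read 425 to 524 FPKM in DMSO and did not pass (adjusted p = 0.688, interval -0.14 to 0.22). Markers of other cells differed here too: the neutrophil sum was 5360 to 6370 FPKM against 8210 to 8560 in WT, the eosinophil sum 60.4 to 72.3 against 179 to 188, and the mast cell and basophil sum 223 to 246 against 168 to 172, with no marker at 0. Their part in the result was not tested.

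Most of the set was lower after 6 h with PGE1 than with DMSO, and a few genes of it were higher. Prostaglandin E acts on cells through G-protein-coupled EP receptors, several of which raise cAMP. Against DMSO, 24 of 38 genes were lower after PGE1 (63.2%), against 25.5% of 11242 genes tested, and 6 were higher, against 23.6%. By at least 1 on the log2 scale, 11 were lower, against 4.17% of all genes. The median was -0.64, and 0.01 over all genes. PGE1 and PGE2 are each set against the same DMSO libraries. Sex-linked genes also differed between PGE1 and DMSO, as given below. Here too, fewer cells of a type and less RNA per cell cannot be told apart.

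The F4/80 gene Adgre1 fell most on the log2(FPKM + 1) scale. It read 17.8, 16.7 and 17.9 FPKM in DMSO and 3.52, 3.24 and 3.36 after PGE1 (5.17-fold, log2 difference -2.08, SE 0.06, adjusted p = 1.77e-07). F13a1 read 55.2, 52.4 and 50.6 against 24.2, 17.1 and 15.5 (2.78-fold). Among other identity and surface genes Ms4a7 fell 8.78-fold, to 0.344 ± 0.069 FPKM (SD, n = 3) on 34 reads, Aif1 4.22-fold on 30 reads, Mpeg1 1.75-fold, Ms4a6c 1.54-fold and Sirpa 1.25-fold. Ms4a4a fell 1.4-fold with overlapping libraries (adjusted p = 0.0407), a call that was lost without DMSO replicate 1, DMSO replicate 2, PGE1 replicate 1, PGE1 replicate 2, PGE2 replicate 1 or PGE2 replicate 2 (adjusted p up to 0.135). Csf1r did not follow Adgre1: it read 48, 46.7 and 48.4 FPKM in DMSO and 53.2, 51.1 and 55.7 after PGE1 (1.12-fold higher, adjusted p = 0.0436).

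All 3 C1q chains fell. C1qc read 16.9, 13 and 13.4 FPKM in DMSO and 3.49, 3.31 and 2.84 after PGE1 (4.49-fold, adjusted p = 4.65e-06). C1qb read 23.5, 17.5 and 19.7 against 6.13, 5.75 and 3.41 (3.98-fold), and C1qa went from 4.06 to 1.07 FPKM (3.78-fold). The groups did not overlap for any chain, as the plot of levels by library shows for C1qb. Of the scavenger genes 5 of 6 fell. Trem2 read 34, 26.4 and 29 FPKM in DMSO and 9.24, 11.2 and 7.18 after PGE1 (3.23-fold), and Msr1 7.94, 6.84 and 7.29 against 2.66, 3.07 and 2.72 (2.61-fold). Gpnmb fell 1.72-fold, Cd68 from 85.7, 75.2 and 74.4 FPKM to 48, 55.2 and 46.9 (1.57-fold) and Apoe 1.57-fold. Cd36 was 1.2-fold higher.

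The proteases split. Ctss, which serves antigen presentation, read 152, 126 and 131 FPKM in DMSO and 73.4, 83.5 and 69.6 after PGE1 (1.81-fold lower, adjusted p = 1.40e-04), and Ctsb 196, 171 and 175 against 102, 108 and 91.3 (1.8-fold lower). Lgmn and Ctsz fell 1.78-fold and 1.53-fold. Ctsl went the other way, from 35.3, 34.4 and 37.5 FPKM to 52.9, 62.9 and 69 (1.72-fold higher, log2 difference 0.76, adjusted p = 2.17e-04). Every PGE1 library was above every DMSO library for Ctsl and below for the 4 that fell. Ctsd, at 587 ± 85.2 FPKM after PGE1 and 513 ± 27.4 in DMSO (n = 3 each), did not pass (interval -0.07 to 0.45).

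The Fc receptors split as well. Fcgr1 fell 2.96-fold, to 1.27 to 1.94 FPKM, and the inhibitory Fcgr2b read 44.3, 43.6 and 42.2 FPKM in DMSO and 23.3, 19.7 and 16.3 after PGE1 (2.2-fold lower, adjusted p = 8.43e-05). Fcgr4 read 5.16, 4.12 and 3.74 against 7.45, 10.7 and 7.16 (1.95-fold higher, adjusted p = 0.00238), with PGE1 replicate 2 the highest. Fcgr3 was 1.28-fold higher. The adaptors Fcer1g and Tyrobp did not pass (intervals -0.43 to 0.21 and -0.48 to 0.07), but both passed as lower without PGE1 replicate 2. Among lectins Clec4d rose most of the set, from 91.7, 88 and 92.8 FPKM to 208, 294 and 225 (2.67-fold, log2 difference 1.39, SE 0.12, adjusted p = 3.36e-05), while Clec7a went from 12.6, 11.4 and 11.3 down to 6.23, 6.74 and 5.04 (1.96-fold) and Mrc1 fell 2.65-fold. Clec4n, the partner of Clec4d, read 14.5 to 27.3 FPKM after PGE1 and 21 to 23.9 in DMSO, and did not pass (interval -0.53 to 0.31). The genes that did not pass also included Lyz2, at 390, 479 and 346 FPKM after PGE1 against 524, 425 and 456 (interval -0.52 to 0.09), Lgals3, Pld4 and Ly6c2.

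The count of 6 higher genes rested on small changes in Csf1r, Cd36 and Fcgr3. It was 3 without DMSO replicate 1, DMSO replicate 2, DMSO replicate 3, PGE2 replicate 1 or PGE2 replicate 2, and the 3 lost were these (adjusted p up to 0.143, 0.131 and 0.106). Clec4d, Ctsl and Fcgr4 passed in each fit with a library left out. Without PGE1 replicate 2, the library that stands apart, 27 genes were lower and 5 higher: Fcer1g, Lyz2, Pld4 and Tyrobp then passed as lower, and Cd36 and Ms4a4a no longer passed. Other markers moved here too: the neutrophil sum was 1940 to 2970 FPKM after PGE1 against 5360 to 6370, with 10 of 13 tested markers lower and none at 0. The eosinophil sum was 2.45 to 24.4 against 60.4 to 72.3, all 3 tested markers lower and Ear1 at 0 in all PGE1 libraries. The mast cell and basophil sum was 305 to 390 against 223 to 246, with 6 of 9 higher. The stem and progenitor sum was 202 to 222 against 152 to 153, with 5 of 7 higher and Kit at 35.4 to 48.5 FPKM. Cd34, of the same list, was lower, at 19.4 FPKM after PGE1 and 40.9 in DMSO. Gata2 is in both this list and the mast cell and basophil list, so both counts of higher markers include it. The part of all these markers in the result was not tested. The monocyte and macrophage marker sum was 940 to 1250 against 913 to 1130, and it includes Cd14, at 255 to 339 FPKM after PGE1 and 44.7 to 47.7 in DMSO. Apart from Cd14 and Mertk that sum is made of genes of the set. Sex-linked genes differed as well. Xist, from the inactive X chromosome, was lower after PGE1 (5.95 FPKM) than in DMSO (10.5, adjusted p = 0.0169) and PGE2 (14.8, adjusted p = 0.00266). The Y-linked genes Ddx3y, Eif2s3y, Kdm5d and Uty were higher after PGE1 than in DMSO by 1.23-fold, 1.34-fold, 1.5-fold and 1.55-fold. The part of donor sex in the PGE1 results was not tested.

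**Figure D3:**
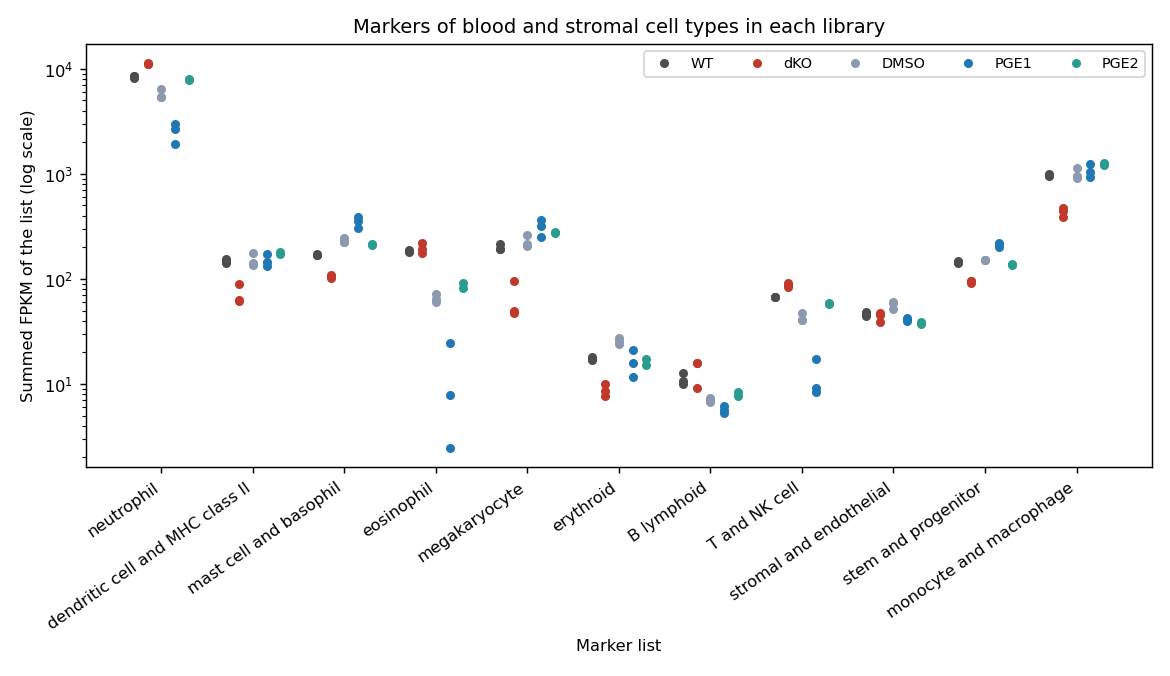
Summed FPKM of 11 lists of cell-type markers (horizontal axis) in each library (dots, coloured by group), on a log scale. The monocyte and macrophage sum, made of genes of the set apart from Mertk and Cd14, is lowest in the 3 dKO libraries. The neutrophil and eosinophil sums are lowest in the 3 PGE1 libraries.

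PGE2, which differs from PGE1 by a further carbon-carbon double bond in a side chain, was compared with DMSO at the same dose and time, on 2 libraries. Of 38 genes 4 were higher (10.5%), against 0.996% of 11242 genes, 1 was lower, against 4.57%, and 33 did not pass. Both PGE2 libraries lay above all DMSO libraries for 22 genes (57.9%), against 25.0% of all genes, and below them for 8 (21.1%), against 24.1%. The median was 0.20, and 0.00 over all genes. Mpeg1 read 62.8 and 62.1 FPKM after PGE2 against 46.6, 44.8 and 46 in DMSO (1.36-fold higher, log2 difference 0.44, SE 0.06, adjusted p = 0.0039). C1qc read 22.2 and 22.3 against 16.9, 13 and 13.4 (1.54-fold, adjusted p = 0.0224), Ms4a4a 9.96 and 9.39 against 6.15, 5.22 and 4.32 (1.85-fold, adjusted p = 0.0216), and Mrc1 was 1.69-fold higher. Lgals3 was lower, at 249 and 252 against 385, 338 and 338 (1.41-fold, adjusted p = 0.0464). Libraries of these 5 genes did not overlap. Without PGE2 replicate 1 or PGE2 replicate 2 none of the 5 passed, with an adjusted p of up to 0.0701 for Mpeg1, and without DMSO replicate 2 or DMSO replicate 3 Mpeg1 alone did. Counts of higher and lower genes were 6 and 0 without DMSO replicate 1. PGE1 libraries enter only through the shared spread and the minimum level, and the counts were 5 and 2 without PGE1 replicate 1, 9 and 4 without PGE1 replicate 2, and 6 and 2 without PGE1 replicate 3. The defining genes Lyz2, Csf1r, Adgre1 and Cd68 read 585 to 591, 48.6 to 49.3, 15.9 to 16.6 and 75.1 to 79.6 FPKM after PGE2. Their log2 differences had intervals of -0.00 to 0.67, -0.11 to 0.18, -0.26 to 0.07 and -0.23 to 0.20.

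The direct comparison of the 2 prostaglandins, the one pair of compounds at a matched dose, showed PGE1 below PGE2 for 26 of 38 genes, against 26.7% of 11242 genes, and above it for 4, against 27.2%. The median was -0.89, and 0.02 over all genes. The PGE1 and PGE2 values are those given above. On the log2(FPKM + 1) scale C1qc and C1qb differed most. C1qc was 6.92-fold lower after PGE1 (log2 difference -2.47, 95% interval -2.74 to -2.20, adjusted p = 5.07e-06), C1qb 6.11-fold and C1qa 5.89-fold. Of the genes at low levels, Ms4a7 was 9.8-fold and Aif1 6.43-fold lower. F13a1 read 24.2, 17.1 and 15.5 FPKM after PGE1 and 81.3 and 80.8 after PGE2 (4.28-fold, interval -2.42 to -1.72), and Adgre1 was 4.82-fold lower (interval -2.14 to -1.82). Trem2, Msr1, Fcgr1, Mpeg1, Lgmn and Apoe were lower by 3.46-fold, 3.31-fold, 3.61-fold, 2.38-fold, 2.37-fold and 2.28-fold. In the other direction Clec4d was 3.19-fold higher after PGE1, at 208 to 294 against 78.3 and 73.7 FPKM (log2 difference 1.65, interval 1.34 to 1.95, adjusted p = 2.74e-05), Ctsl 2.33-fold, Lgals3 1.36-fold and Ctsd 1.3-fold. Other markers differed between the compounds: 12 of 13 neutrophil and 3 of 3 eosinophil markers tested were lower after PGE1, and 6 of 9 mast cell and basophil and 5 of 7 stem and progenitor markers were higher. Gata2 is counted in both of the latter lists. Cd34, a stem and progenitor marker, was lower, at 19.4 FPKM after PGE1 and 47.4 after PGE2. The part of all these markers in the result was not tested.

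For 8 genes the difference between the compounds did not pass. The intervals of PGE1 minus PGE2 were narrowest for Csf1r (-0.02 to 0.26, almost wholly above 0) and Cd36 (-0.17 to 0.24). They were wider for the Fc receptor genes Fcgr3 (-0.11 to 0.47), Fcgr4 (0.02 to 0.80) and Fcer1g (-0.30 to 0.42), and for Clec4n (0.04 to 0.97), Pld4 (-0.71 to -0.02) and Ly6c2 (-0.98 to -0.07). The intervals of Fcgr4, Clec4n, Pld4 and Ly6c2 leave out 0 but are not adjusted over all genes, and the adjusted p was 0.0688, 0.0661, 0.0672 and 0.0518. Without PGE2 replicate 1 or PGE2 replicate 2 the higher genes were 2, Clec4d and Ctsl, and the lower genes 23. Without PGE1 replicate 2 there were 5 higher and 28 lower, with Csf1r then passing as higher and Ly6c2 and Pld4 as lower.

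**Figure D4:**
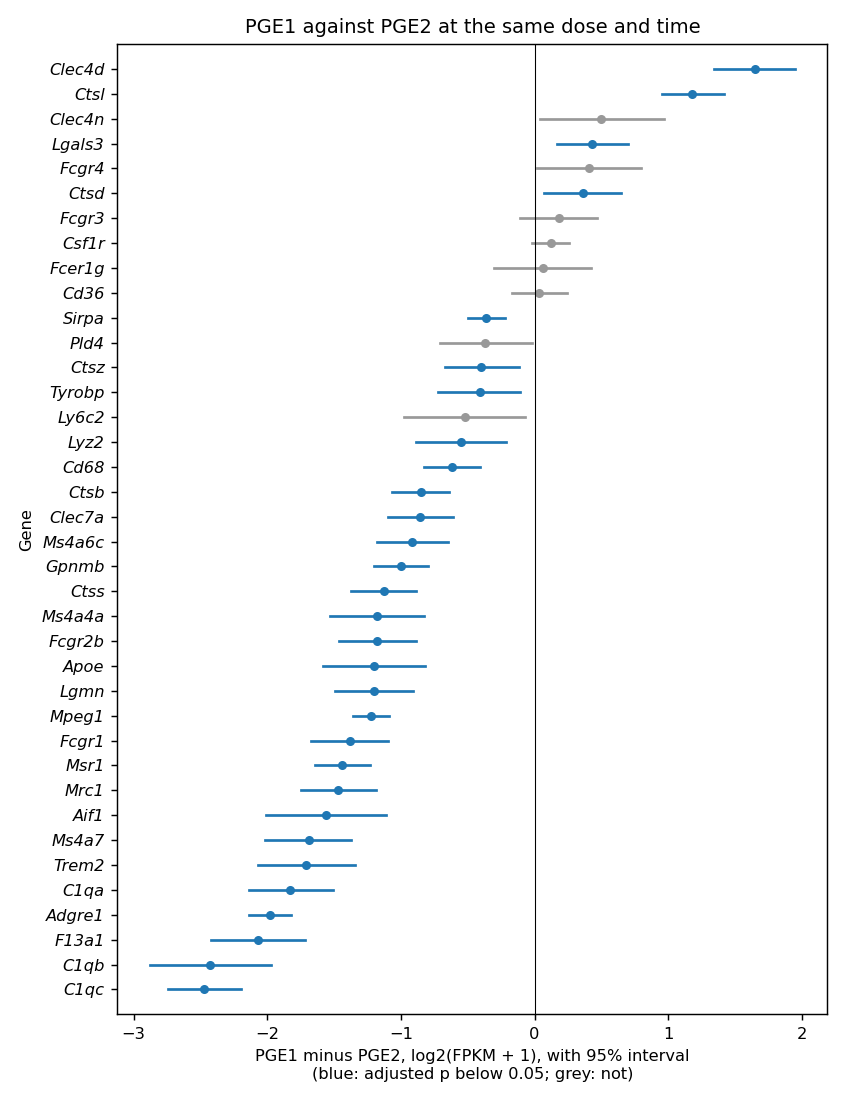
PGE1 minus PGE2 in log2(FPKM + 1) for the 38 genes tested (points) with 95% intervals (lines), ordered by size; blue marks an adjusted p below 0.05. Clec4d and Ctsl lie far to the right and C1qc, C1qb, F13a1 and Adgre1 far to the left, with 8 grey genes.

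The 2 comparisons with no library in common, dKO against WT and PGE1 against DMSO, were set side by side. Of the 34 genes lower in dKO, 21 were also lower after PGE1 (61.8% of the 34 and 87.5% of the 24), where over all genes tested in both it was 551 (22.6% of 2443 and 20.1% of 2743). Over the 38 genes 63.2% were lower after PGE1 and 89.5% lower in dKO, so these shares are close to those of the set as a whole in each comparison. The 6 genes higher after PGE1 were all lower in dKO, as were 34 of the 38 genes tested, so this too is close to the share of the set. Fcgr2b was higher in dKO and lower after PGE1, with log2 differences of 0.45 and -1.11. The order of the genes differed: Gpnmb had -4.12 in dKO and -0.78 after PGE1, Lyz2 -3.17 and -0.22, and Adgre1 -1.86 and -2.08, while F13a1 had -0.46 and -1.45. C1qb had -3.22 and -1.82. Tcf7, which encodes Tcf1, was at 0.0996 FPKM in dKO against 1.31 in WT. After PGE1 it was higher than in DMSO, at 6.66 against 1.14 FPKM (limma adjusted p = 3.68e-05). The part of Tcf7 in these results was not tested.

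**Figure D5:**
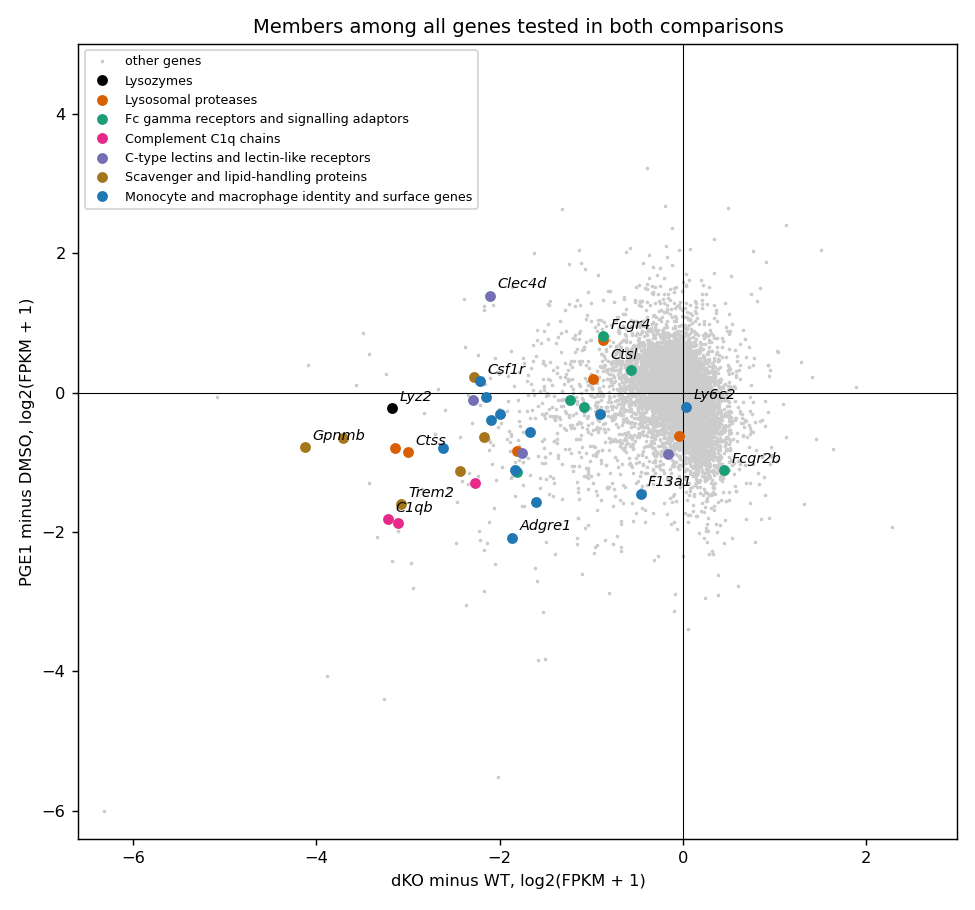
Each gene tested in both fits, by dKO minus WT (horizontal) and PGE1 minus DMSO (vertical) in log2(FPKM + 1); the 39 genes, less Lyz1, are coloured by role and all others grey. Most coloured points are left of 0 and below it, Clec4d, Fcgr4 and Ctsl are left of 0 and above it, and Fcgr2b is to the right and below.

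Other genes of the same pathways, from lists chosen with results of these data known, gave these counts, to be read against the shares of all genes given above for each comparison. Of 30 further lysosomal hydrolases and lysosome proteins, 26 fell and 2 rose (Gaa, Neu1) in dKO with a median of -0.38, led by Psap, the precursor of the saposins, at 679 to 716 FPKM in WT and 195 to 227 in dKO. After PGE1 12 fell and 4 rose, among them the lysosomal membrane protein gene Lamp2 (1.37-fold), and after PGE2 3 fell and 0 rose. Of 17 Fc receptor and DAP12 signalling genes 10 fell in dKO, among them the inhibitory receptor gene Pirb (15.2-fold) and the adaptor gene Lat2 (2.45-fold), and 1 rose, Pik3cd. After PGE1 5 fell and 5 rose, close to the shares over all genes (25.5% and 23.6%), the latter including the kinase gene Syk (1.42-fold) and the phosphatase gene Inpp5d (1.6-fold). Of 7 other complement genes tested 6 fell in dKO. The anaphylatoxin receptor gene C3ar1 fell 9.53-fold in dKO and 5.21-fold after PGE1, while C5ar1 fell 7.75-fold in dKO and rose 3.22-fold after PGE1.

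Of the macrophage transcription factors 15 of 19 tested fell in dKO and 3 rose (Cebpa, Cebpb, Tfec). After PGE1 11 of 20 fell and 5 rose (Bach1, Cebpb, Nr4a1, Tfe3, Zeb2). Nr4a1, which had the smallest p of the list after PGE1, rose 3.17-fold (limma adjusted p = 4.48e-06), and Cebpb rose 2.24-fold (adjusted p = 2.11e-04). Irf8, which directs monocyte development, read 31.7 to 32.4 FPKM in WT and 13.3 to 14.5 in dKO, and 23.5 to 26.7 in DMSO and 9.22 to 10.2 after PGE1. Maf fell 18.2-fold in dKO and was 2.48-fold lower after PGE1 (2.11 against 5.23 FPKM). Spi1, the gene of PU.1, fell 1.14-fold in dKO (adjusted p = 0.00806) and did not pass after PGE1 (adjusted p = 0.818, interval -0.27 to 0.20). Of 30 other monocyte and macrophage genes 24 fell and 1 rose (Ncf1) in dKO, led by Slc11a1, a metal transporter of phagosomes, at 7.89 to 9.13 FPKM in WT and 0.236 to 0.398 in dKO (26.2-fold). After PGE1 17 fell and 6 rose. The largest rise was in Cd14, the co-receptor for lipopolysaccharide (6.37-fold), which was 2.6-fold lower in dKO and 1.52-fold higher after PGE2. After DMSO alone, against WT, 18 of these 30 were higher and 6 lower, with Spp1, which encodes osteopontin, 14.4-fold and Hmox1, the heme-degrading enzyme, 9.58-fold higher.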

How the data were processed

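RNA-seq values of 39 genes were taken from 14 deposited tables, 1 per library. Those deposited values are FPKM; CASAVA 1.8, TopHat, Cufflinks and the mouse build mm9 are named, per the submitters' processing notes. Which gene annotation was used, and how strand and reads shared between similar genes were handled, is not given in the sources used. Gene symbols are those of the files, and coordinates are RefSeq's on GRCm38.p6.

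FPKM values were whole multiples of 1 read's worth for 100% of 19057 genes (within 0.001 read), which gave the depths and the reads behind low values. Linear models were fitted to log2(FPKM + 1) with limma 3.58.1 (R 4.3.3), using lmFit and a trended eBayes. A gene entered a fit when its mean there reached 1 FPKM. Two-sided p-values were adjusted by Benjamini-Hochberg across every gene in the fit, and 0.05 was the threshold. This scale understates changes of low genes, and folds are ratios of mean FPKM. The fits held 6 untreated libraries (dKO against WT), 8 treated libraries (PGE1, PGE2 and DMSO, sharing 1 estimate of spread) and 6 libraries of WT and DMSO. The fit was also run on simulated reads, with the same spread in every library and no outlying library. That run does not show how the fit handles libraries that stand apart. Groups came from the sample titles. Depth was 19.0 to 33.8 M reads a library.

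The members and lists were chosen with earlier results of these data known. Genes with values in each library were Csf1r, Adgre1, Cd68, Lyz2 and per comparison, the called members with the largest differences (at most 12, whose higher group mean reached 5 FPKM); up to 3 with the smallest p were named from each further list. Other genes were named after their values were seen. Alternatives were a pseudocount of 0.1 FPKM, no minimum or one of 5 FPKM, quantile normalization, median-of-ratios scaling, the replicate number as a block, 1 fit over all 14 libraries, and each library left out in turn. Summaries and plots were made in Python 3.11.15 with pandas 2.3.3, numpy 2.4.6 and matplotlib 3.10.9.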

Additional observations from a re-analysis of the deposited data

How the results depend on the processing

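Of the genes of the set past the threshold, 0 changed direction under any alternative in any of the 5 comparisons. Values past the threshold that no longer passed numbered 5 of 446 for dKO against WT, 33 of 445 for PGE1 against DMSO, 30 of 74 for PGE2 against DMSO, 24 of 445 for PGE1 against PGE2 and 37 of 348 for DMSO against WT. With each library left out in turn, genes of the set higher after PGE1 than DMSO ranged from 3 to 5 (6 with all), those higher after PGE1 than PGE2 from 2 to 6 (4 with all), and those lower in DMSO than WT from 4 to 14 (9 with all); a PGE2 group of 1 library was assumed to vary like the others. PGE2 against DMSO was the least stable. Left-out libraries gave 125 to 1218 genes called of all tested (626 with all), with 0 to 9 of the set higher and 0 to 4 lower. Higher and lower counts of the set were 2 and 0 with no minimum, 7 and 2 with quantile normalization, and 5 and 0 with median-of-ratios scaling, and a minimum of 5 FPKM gave 2 lower. 1 fit over all 14 libraries gave 1207 genes with 7 of the set higher and 2 lower, and for DMSO against WT 5 of the set lower. For PGE2 the cause of these shifts was not tested. In dKO against WT, higher calls were 44.1% of all calls, but 35.2% with no minimum, 54.7% at 5 FPKM, 60.2% and 56.2% under the other scalings.

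The replicate numbers showed no clear pairing of the libraries. Correlations of same-numbered deviations were 0.04, 0.12 and 0.00 for WT and dKO, -0.14, -0.24 and 0.25 for DMSO and PGE1, and -0.07 and -0.06 for DMSO and PGE2. They were 0.00 and 0.05 for PGE1 and PGE2, and -0.01, -0.02 and 0.06 for WT and DMSO. Deviations within groups of 2 or 3 libraries cannot settle whether the numbers pair them. With the replicate number as a block, PGE2 against DMSO gave 269 genes called, 1 of the set higher and 0 lower, and dKO against WT 34 of the set lower and 1 higher. Depth limits the lowest genes, such as Aif1 and Msr1 in dKO with 23 and 47 reads over 3 libraries.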

Other observations

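The Clec4 lectin genes, chosen here after their values were seen, did not move as a block after PGE1. Clec4e (Mincle), which pairs with Clec4d at the cell surface, rose as Clec4d did, to 39.3 FPKM from 15.1 in DMSO (2.6-fold, limma adjusted p = 1.47e-05), and was 1.41-fold lower in dKO than in WT (adjusted p = 0.0256). Clec4a3 fell 1.68-fold (adjusted p = 0.0204, with overlapping libraries), and Clec4a1 and Clec4a2 did not pass (adjusted p = 0.62 and 0.0851). Clec12a, an inhibitory lectin of myeloid cells, was at 4.53 FPKM after PGE1 and 36.6 in DMSO (8.07-fold lower, adjusted p = 8.43e-05), but in dKO it was at 58.6 against 61.6 FPKM in WT and did not pass (adjusted p = 0.463). Cybb, the catalytic subunit of the phagocyte oxidase, fell in both, 3.77-fold in dKO (adjusted p = 1.47e-05) and 3.44-fold after PGE1 (adjusted p = 1.40e-05), whereas Ncf1, a cytosolic subunit of the same enzyme, rose 1.26-fold in dKO (adjusted p = 0.0017) and did not pass after PGE1 (adjusted p = 0.708).

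Siglec1, a sialic acid receptor of tissue macrophages, had 0.0419 FPKM after PGE1 against 1.7 in DMSO, and 3.08 after PGE2 (adjusted p of 9.25e-06 and 0.0118 against DMSO). It was thus lower after PGE1 and higher after PGE2, as C1qc, Mrc1, Mpeg1 and Ms4a4a were. Both contrasts use the same DMSO libraries. Without DMSO replicate 2 or DMSO replicate 3, C1qc, Mrc1 and Ms4a4a no longer passed as higher after PGE2. The libraries of Ms4a4a overlapped between PGE1 and DMSO. The Siglec1 level after PGE1 rests on 17 reads over 3 libraries.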
